A study of Mus musculus with 6 samples.

Results

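The 58 genes described here code for nucleolar ribosome biogenesis factors: the core proteins of box C/D and box H/ACA ribonucleoproteins, RNA polymerase I subunits, nucleolar scaffold proteins, and assembly factors of both ribosomal subunits. The rule takes them by name, through the gene symbol that the platform annotation gives each probe set, and uses no measured value, but the list was drawn up with earlier results of these data known. Of the 58 genes, 56 were named by at least 1 probe set that carries a single symbol, through 108 of the 45037 probe sets on the array. All 56 passed the filter on low values and were tested among 13187 genes. Npm3 had no probe set here, and the only probe set of Mrto4 also carries 2 other symbols, Mrto4-ps1 and Mrto4-ps2, so neither was tested as a gene.

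The RNA came from mouse thymus. Each of 6 single-colour arrays held amplified RNA of 1 animal by its description, with 3 animals labelled wild type and 3 labelled as knockouts of both Egr1 and Egr3, a pair of zinc finger transcription factors induced by antigen receptor signalling. Sample descriptions speak of double negative thymocytes obtained by flow sorting, the stage before CD4 and CD8 appear, whereas whole thymus is the wording of the titles and source names. The sources used here do not give strain, age, sex, alleles, sort gate or cell number.

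As background, ribosomes are made in the nucleolus, where RNA polymerase I transcribes the ribosomal RNA precursor. Small nucleolar ribonucleoproteins guide its 2'-O-methylation (box C/D) or pseudouridylation (box H/ACA), the small subunit processome folds and cleaves it, and separate sets of GTPases, helicases and scaffold proteins build the 40S and 60S subunits. Many of these genes are known targets of the transcription factor Myc, and early thymocytes need ribosome production while they proliferate after rearranging their antigen receptor genes.

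Upstream sequences were available for 49 of the 58 genes, as 52 windows that run from 250 bases before to 50 after an annotated transcription start (RefSeq, mouse build GRCm38.p6). The other 9 genes, Rrp12, Npm1, Naf1, Tcof1, Gnl2, Fbl, Bop1, Rrs1 and Tbl3, had no window. The palindrome CACGTG, the canonical E-box that Myc and related factors are known to bind, occurred in 10 of the 52 windows (19.2%), against 7.15% of all 32817 windows of that length. The share was 21.1% of 19 windows for genes that passed the test described below and 19.4% of 31 windows for members that did not. The share was also close to that in the windows of other ribosome biogenesis genes (18.5% of 92), and it was 11.9% in 67 windows of cytosolic ribosomal protein genes. The 11 copies are shown because Myc, whose signal differed between the groups, is known to bind this sequence, with CACGTG in capitals, its flanks in lower case, and each site read 5′ to 3′ on the gene's own strand:
Grwd1, chr7:45830740-45830765, minus strand: gccggagtcgCACGTGtgaaaccgga
Imp4, chr1:34439698-34439723, plus strand: ggtcttagacCACGTGacatcccaaa
Ltv1, chr10:13193094-13193119, minus strand: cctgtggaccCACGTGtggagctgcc
Nop2, chr6:125131813-125131838, plus strand: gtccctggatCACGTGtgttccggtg
Pes1, chr11:3963967-3963992, plus strand: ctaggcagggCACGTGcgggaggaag
Rrn3, chr16:13780474-13780499, plus strand: gcgccaaggtCACGTGcacacgcctc
Rrn3, chr16:13780641-13780666, plus strand: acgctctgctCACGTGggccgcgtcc
Tsr1, chr11:74898094-74898119, plus strand: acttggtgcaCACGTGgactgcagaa
Utp18, chr11:93885771-93885796, minus strand: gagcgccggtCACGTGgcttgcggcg
Utp20, chr10:88826765-88826787, minus strand: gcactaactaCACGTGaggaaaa
Wdr43, chr17:71616222-71616247, plus strand: cccgggcgaaCACGTGgctgccgcgg
The first capital of these sites lay from 215 bases before the start (the upstream copy of Rrn3) to 38 bases after it (Utp20). Of the genes listed, Grwd1, Nop2, Tsr1 and Utp20 passed the test and the other 6 did not. Whether Myc had a part in any of these changes was not tested.

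Counted on both strands, GCGTGGG, part of the EGR family's recognition sequence, occurred in 4 member windows (7.69%), those of Ncl, Pes1, Tsr1 and Polr1c, against 5.04% of all windows. CCGGAA, the core bound by ETS factors, occurred in 24 (46.2%) against 14.9%, and TATAAA in 2 (3.85%) against 13.6%. These last motifs were chosen after sequences had been seen. None of the searched motifs can overlap in its whole length with another. CCGGAA was also found in 58.7% of the windows of other ribosome biogenesis genes and 47.8% of those of cytosolic ribosomal protein genes. A match is a description of the letters, and no binding was measured.

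The 250 bases before the start are given for 4 genes that differ in these motifs and in their expression. Bysl and Nop56 fell with and without an ETS core, and Nop2 fell and holds an E-box beside ETS cores. Rrn3 has a pair of E-boxes, holds no complete ETS core within these 250 bases, and did not pass the test. Capitals mark CACGTG and CCGGAA or its reverse complement TTCCGG:
Bysl, chr17:47611493-47611742, minus strand: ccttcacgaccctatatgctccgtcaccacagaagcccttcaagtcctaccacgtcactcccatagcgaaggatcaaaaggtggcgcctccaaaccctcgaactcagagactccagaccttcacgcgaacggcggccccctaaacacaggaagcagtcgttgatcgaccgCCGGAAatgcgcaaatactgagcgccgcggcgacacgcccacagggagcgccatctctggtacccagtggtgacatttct
Nop2, chr6:125131633-125131882, plus strand: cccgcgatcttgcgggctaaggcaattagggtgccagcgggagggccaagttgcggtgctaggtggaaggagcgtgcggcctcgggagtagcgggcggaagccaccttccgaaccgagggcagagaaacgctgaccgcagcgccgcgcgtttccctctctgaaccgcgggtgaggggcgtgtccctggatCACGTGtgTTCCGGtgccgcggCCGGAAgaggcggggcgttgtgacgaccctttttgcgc
Nop56, chr2:130274162-130274411, plus strand: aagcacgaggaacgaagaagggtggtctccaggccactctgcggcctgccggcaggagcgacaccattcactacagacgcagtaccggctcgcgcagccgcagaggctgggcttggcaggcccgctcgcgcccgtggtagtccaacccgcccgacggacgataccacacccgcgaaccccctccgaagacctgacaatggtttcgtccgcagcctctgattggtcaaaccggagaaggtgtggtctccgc
Rrn3, chr16:13780449-13780698, plus strand: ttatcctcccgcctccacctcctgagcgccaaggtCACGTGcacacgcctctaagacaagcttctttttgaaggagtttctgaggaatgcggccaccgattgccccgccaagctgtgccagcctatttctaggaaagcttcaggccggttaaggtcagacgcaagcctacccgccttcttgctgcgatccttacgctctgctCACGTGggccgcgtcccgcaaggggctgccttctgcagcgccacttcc
Nop56 holds neither motif in this stretch. In Nop2 the E-box starts 60 bases before the start and the ETS cores 52 and 38 bases before it. The window of Rrn3 also has ETS cores, which begin 4 bases before the start and 20 bases after it. The former runs past the end of the printed stretch, so its letters there are in lower case.

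Array medians were close, between intensities of 19.9 and 23.1, and the brightest of 27 bacterial control probe sets read 19.0 to 29.9, which serves here as a background level. The targeted genes went against the labels in part: Egr1 read 508, 509 and 455 in the wild type group and 1757, 1696 and 1221 in the group labelled double knockout, and the first of 2 Egr3 probe sets read 92.2, 83.1 and 30.8 against 34.4, 45.8 and 32.9. The second Egr3 probe set read 34.2, 30.5 and 30.5 against 12.5, 32.1 and 55.4. The groups overlapped in both, and neither passed the test (adjusted p = 0.528 and 0.964). The sources used here do not say which part of either gene was deleted, so whether these probe sets lie inside it is unknown, and every direction below is that of the labels. Wild type replicate 3 stood apart in markers of other cells: the summed intensity of 11 granulocyte markers was 388 there, between 11524 and 24984 in the other wild type animals, and between 18557 and 27760 in the labelled double knockouts. Dim genes of that list did not all do so: in wild type Elane read 45.3, 28.2 and 37.9, and Prtn3 10.3, 45.3 and 16.5. For thymocyte markers (12 genes) the sum ran from 35228 to 46911 in wild type and from 23191 to 26581 in the labelled double knockouts. Not all of them differed. Of the 11 tested, 4 (Ptcra, Il2ra, Dntt and Thy1) were lower with groups apart, as were 12% of all genes, and in 7 the groups overlapped. B cell markers (7 genes) ran from 1073 to 2016 against 2399 to 2865, a gap that came from Cd79b, since the other 6 summed to 502 to 934 against 584 to 943. Macrophage and dendritic cell markers (8 genes) ran from 237 to 485 against 329 to 446, and epithelial and stromal markers (8 genes) from 423 to 1972 against 1096 to 3085. Erythroid markers (4 genes) ran from 70.3 to 3876 against 358 to 453, and the 3876 was again wild type replicate 3. Of these marker genes, Cd4 and 1 macrophage and dendritic and 2 epithelial and stromal genes lay below the background level on all arrays. The part of any of these differences in the results below was not tested, and in bulk RNA fewer cells of a type and less RNA per cell cannot be told apart.

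Ribosome biogenesis factors were lower as a group on the arrays labelled double knockout. Of the 56 members tested, 23 fell (41.1%), none rose and 33 did not pass the test, where over all genes 2.84% fell and 4.14% rose. A gene is said to have fallen or risen where limma's adjusted p was under 0.05. No member was higher at an unadjusted p under 0.05, and 38 were lower at that level. Of all 13187 genes, 2755 reached it in either direction. The differences, in log2 of intensity plus 16 and as double knockout minus wild type, had a median of -0.94 over the members, with the middle of the distribution from -1.21 to -0.44, against a median of -0.01 and a middle of -0.32 to 0.30 over all genes. By sign, 51 of 56 were negative, against 51% of all genes. In 40 members every array labelled double knockout lay below every wild type array, as it did in 12% of all genes. No member showed the opposite, as 14.3% of all genes did, and in 16 the groups overlapped. The 23 genes that fell had differences of -0.91 to -1.997 with a median of -1.26, and 19 of them fell by at least 1 log2 unit.

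How many members pass depended on the arrays. Without wild type replicate 3, the array with few granulocyte transcripts, 31 members passed, 30 lower and 1 higher, beside 7.22% of all genes lower. Without wild type replicate 1 the count was 17 (1.5% of all genes lower), and without replicate 2 it was 14 (1.15%). Leaving out labelled double knockout replicate 1, 2 or 3 gave 8, 14 and 11 members, beside 0.705%, 1.23% and 1.3% of all genes. Of the 23 calls, 8 held with each of the 6 arrays left out in turn: Rrp9, Bysl, Lyar, Grwd1, Gnl3, Nop56, Nolc1 and Dkc1. The other 15 were each lost without at least 1 array.

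**Figure D1:**
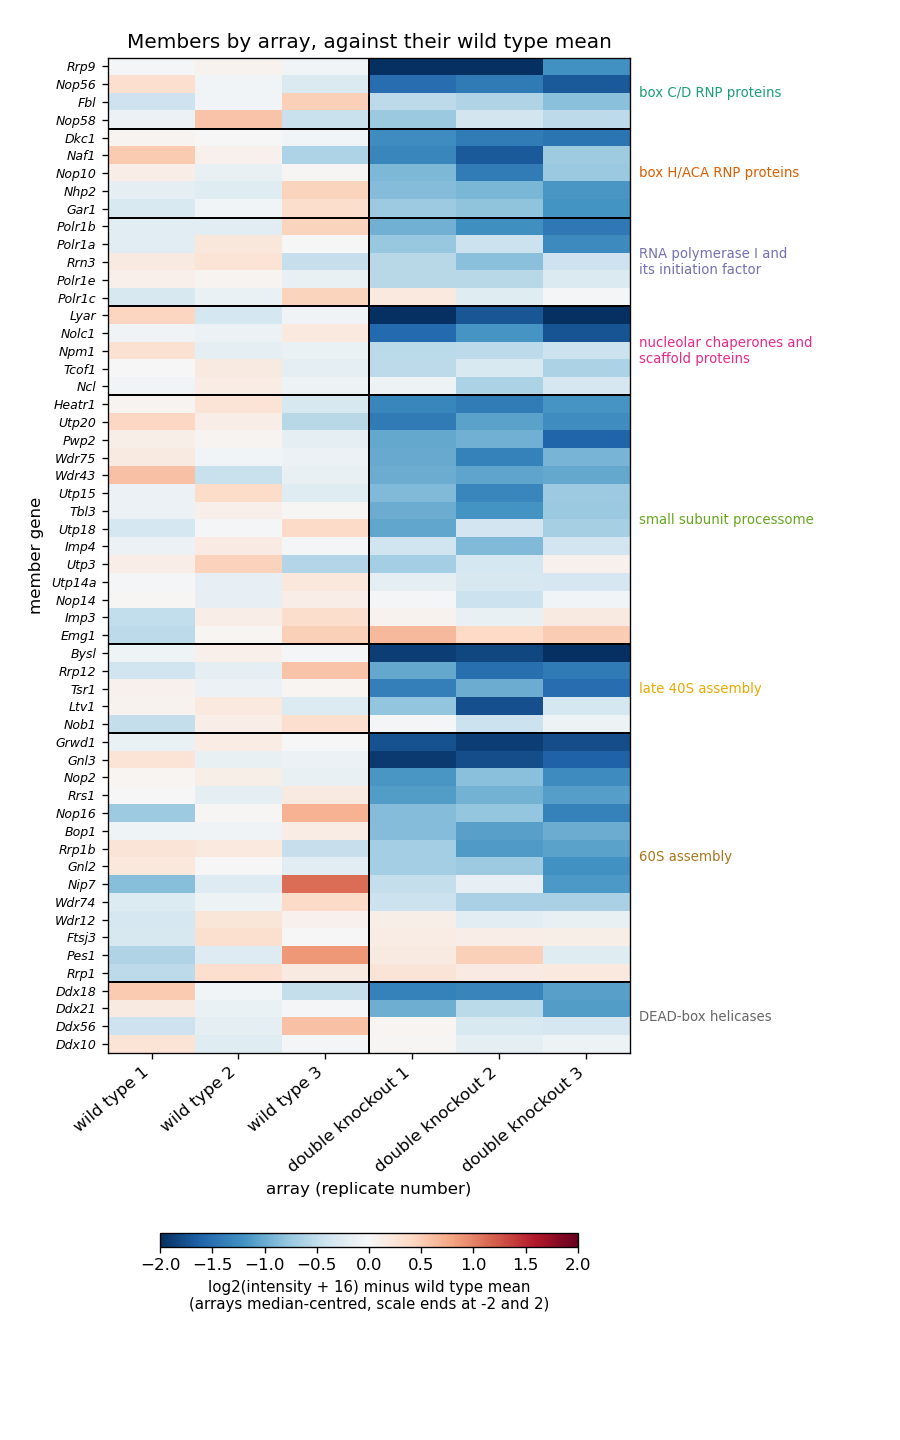
Each line of the map is 1 member gene and each column 1 array. Colour gives log2(intensity + 16) minus the gene's wild type mean, blue where lower, with black lines between role groups and between genotypes. Most genes are blue on all 3 arrays labelled double knockout, whose median deviations were -0.82, -0.83 and -0.88, while the wild type arrays lie near 0.

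Seen by array, the members' median was alike within each group and differed between the groups. The median deviation of the 56 genes from their own wild type means was -0.05, -0.00 and -0.02 for wild type replicates 1 to 3 and -0.82, -0.83 and -0.88 for the labelled double knockouts. By this median the replicates of each group lay close together, and the groups were far apart. Wild type replicate 3, which differed so much in granulocyte transcripts, did not differ in this median. It was the highest wild type array for 20 members and the lowest for 20. All 3 arrays labelled double knockout lay below it in 48 of 56 members, and below wild type replicates 1 and 2 in 46 and 48. Lying below 1 wild type array is a weaker condition than lying below all 3. The share of all genes that meet it is not given here, so these counts have no background to be read against. Within groups the members varied about as much as other genes: the median SD was 0.31 on the wild type arrays (0.34 over all genes) and 0.21 on the labelled double knockout arrays (0.25 over all genes).

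**Figure D2:**
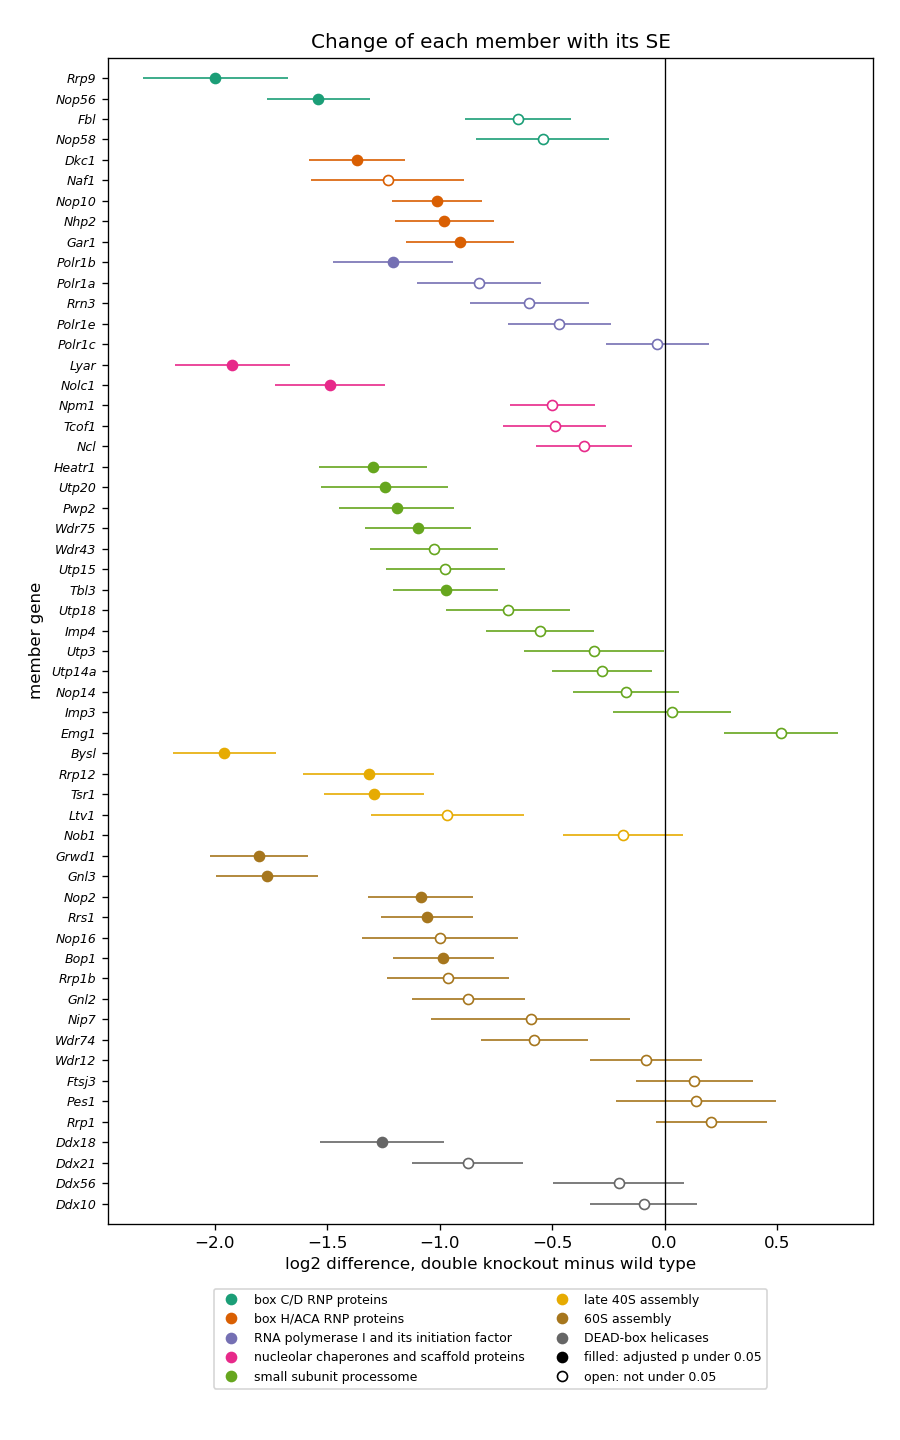
The horizontal axis is the log2 difference, double knockout minus wild type by label, and each point is 1 member with its standard error, coloured by role. Filled points are the 23 members with an adjusted p under 0.05, and all lie left of 0. Emg1, at 0.52, is the rightmost point and is open.

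Box C/D ribonucleoproteins carry the methyltransferase fibrillarin on a core of Nop56, Nop58 and a small RNA-binding protein, and Rrp9 is a component specific to the U3 particle, which is needed for 18S rRNA processing. Of these 4 genes 2 fell, and the median difference was -1.10. Nop56 read 3496, 2471 and 2218 in wild type replicates 1 to 3 and 906, 1045 and 828 in the labelled double knockouts. Every wild type value was more than double the highest of the other group, and the difference was -1.54 (SE 0.23, adjusted p = 0.00306). Rrp9 read 171, 170.2 and 165 against 20.7, 18.8 and 64.2. It fell, with a difference of -1.997 (SE 0.32, adjusted p = 0.00467), but on labelled double knockout replicates 1 and 2 its signal lay about at the bacterial control level of those arrays, 19.0 and 24.3. The size of its change therefore depended on the offset added before the log, at -1.28 with an offset of 64, where Nop56 was at -1.48, and it is not ranked against other members. Fbl, which codes for fibrillarin, read 4823, 5759 and 8848 against 4293, 4332 and 3521. These groups did not overlap, yet the wild type values spread widely and the difference of -0.65 (SE 0.24) did not pass (adjusted p = 0.138). Nop58 was dim, at 53.5, 87.4 and 38.3 against 27.0, 43.4 and 35.4, and its groups overlapped (-0.54, SE 0.30, adjusted p = 0.339). Both calls, Nop56 and Rrp9, held with any 1 array left out.

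Box H/ACA ribonucleoproteins hold the pseudouridine synthase dyskerin (Dkc1) with Nop10, Nhp2 and Gar1, and the same proteins bind the telomerase RNA. All 4 of these core genes fell, and the fifth member of the group, the assembly factor Naf1, did not pass, with a median over the 5 of -1.01. Dkc1 read 1496, 1339 and 1374 in wild type and 574, 544 and 504 in the labelled double knockouts. Replicates of each group were close, and the difference was -1.37 (SE 0.21, adjusted p = 0.00375). Nop10 read 13589, 10408 and 12434 against 6359, 4788 and 7286 (-1.01, SE 0.20, adjusted p = 0.0128). Nhp2 read 6413, 5796 and 9828 against 3869.5, 3973 and 3202 (-0.98, SE 0.22, adjusted p = 0.0238). Gar1, at 2273, 2518 and 3540.3 against 1615, 1616 and 1195, had the smallest change of any member that passed (-0.91, SE 0.24, adjusted p = 0.0451). Its only probe set did not pass in the limma fit over all probe sets (adjusted p = 0.0533). For Nhp2 and Gar1 the highest value came from wild type replicate 3, and no value of 1 group reached into the other. Naf1, at 498, 335 and 213 against 121, 96.5 and 198, differed by -1.23 with a wide error (SE 0.34, adjusted p = 0.0549). Only the Dkc1 call held with each array left out: Nop10 was lost without wild type replicate 1 or labelled double knockout replicate 1, Nhp2 without any 1 of the labelled double knockouts, and Gar1 without wild type replicate 2 or any 1 of them.

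Of the 5 members that belong to RNA polymerase I or start it, 1 fell, and the median was -0.60. Polr1b, the second largest subunit and part of the catalytic core, read 228, 211 and 369 against 124, 107 and 88.1 (-1.21, SE 0.27, adjusted p = 0.0223), a call that was lost without any 1 of the arrays labelled double knockout. Polr1a, the largest subunit, read 216, 282 and 253 against 138, 189 and 93.9. Its groups were apart, and the difference of -0.83 (SE 0.27) did not pass (adjusted p = 0.105). Polr1e, a subunit of the polymerase's dissociable heterodimer, read 328, 293 and 269 against 192, 205 and 243, again apart (-0.47, SE 0.23, adjusted p = 0.277). Rrn3, the initiation factor that makes the polymerase competent to start, read 212, 211 and 129 against 115, 98.9 and 132. Here wild type replicate 3 fell among the other group's values, and the difference was -0.60 (SE 0.27, adjusted p = 0.227). Polr1c, which RNA polymerases I and III share, read 3949, 4196 and 6597 against 5365, 4216 and 4692. Its groups overlapped widely (-0.03, SE 0.23, adjusted p = 0.956), and the sign of this small value turned under 6 other settings.

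Among nucleolar scaffold proteins and chaperones, 2 of 5 tested genes fell and in all 5 the groups were apart. Lyar, a zinc finger protein of the nucleolus first known for promoting cell growth, read 2375, 1277 and 1642 against 402, 532 and 411. The lowest wild type value was more than double the highest of the other group (-1.92, SE 0.26, adjusted p = 0.00146). Nolc1 (Nopp140), which associates with both classes of ribonucleoprotein, read 814, 729 and 965 against 266, 376 and 243 (-1.49, SE 0.24, adjusted p = 0.00489). Both calls held without any 1 array. The abundant nucleolar proteins showed smaller differences. Npm1 (nucleophosmin, a histone and ribosome assembly chaperone) read 8318, 5546 and 6035 against 4412, 4719 and 4903 (-0.50, SE 0.19, adjusted p = 0.157). Tcof1 (treacle, which works with RNA polymerase I) read 755, 792 and 647 against 495, 613 and 466 (-0.49, SE 0.23, adjusted p = 0.256). Ncl (nucleolin) read 2577, 2765 and 2439 against 2368, 1735 and 2070.5 (-0.36, SE 0.21, adjusted p = 0.386). None of these 3 passed, although the lowest wild type value exceeded the highest of the other group in each.

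The small subunit processome assembles on the precursor as it is made, and its 14 members gave 5 genes that fell and a median of -0.83. Heatr1 (the mammalian Utp10, also needed for precursor transcription) read 948, 1024 and 719 against 343, 343 and 384 (-1.30, SE 0.24, adjusted p = 0.00937). Pwp2, a WD repeat protein of the UTPB subcomplex, read 360.4, 317 and 286 against 147, 165 and 95.6 (-1.19, SE 0.25, adjusted p = 0.019). Wdr75, of the UTPA subcomplex, read 443, 343 and 349 against 175, 145 and 192 (-1.10, SE 0.24, adjusted p = 0.0197). In these genes every wild type value was well above every other value. Utp20, a large scaffold of helical repeats, read 622, 474 and 307 against 157, 215 and 182 (-1.24, SE 0.28, adjusted p = 0.0247). Tbl3 (Utp13), another UTPB protein, fell with a difference of -0.97 (SE 0.23, adjusted p = 0.0309). None of these 5 calls held with every array left out in turn: all were lost without labelled double knockout replicate 1, and all but Heatr1 without at least 3 further arrays.

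Of the 9 processome members that did not pass, Utp15 and Wdr43, both of the UTPA subcomplex, came closest, with differences of -0.97 (SE 0.26, adjusted p = 0.0516) and -1.03 (SE 0.28, adjusted p = 0.0541). Wdr43 read 1253, 561 and 731 against 387, 394 and 391, so the labelled double knockout values were nearly equal and wild type replicate 1 stood high. Utp18, a UTPB protein, and Imp4, which brings U3 to the precursor, also had groups apart at -0.69 and -0.55. Utp14a, Utp3 and Nop14 lay between -0.17 and -0.31 with groups that overlapped. Imp3, the partner of Imp4, differed by 0.03 (SE 0.26, adjusted p = 0.958). Emg1, a methyltransferase that modifies 18S rRNA, was the member with the most positive difference: it read 2128, 2936 and 4217 against 4615, 4098 and 4278 (0.52, SE 0.25, adjusted p = 0.276). Its wild type values spread over the range from the lowest up to the level of the other group. Without wild type replicate 3 the difference was 0.76 and passed (adjusted p = 0.0319).

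Late 40S assembly had a median of -1.29, and 3 of its 5 genes fell. Bysl (bystin), which acts in 40S maturation, read 449, 475 and 462 against 112, 125 and 91.3. Its replicates were tight in both groups, and it had the smallest adjusted p of the members (-1.96, SE 0.23, adjusted p = 0.0007). Tsr1, a GTPase-like protein that keeps immature 40S subunits from joining translation, read 2880.1, 2306 and 2721 against 993, 1376 and 911 (-1.29, SE 0.22, adjusted p = 0.00616). Rrp12, which takes part in processing and export of the pre-ribosome, read 123, 136 and 255 against 70.5, 50.02 and 51.6 (-1.32, SE 0.29, adjusted p = 0.0227). For Rrp12 wild type replicate 3 was the high array, and the groups were apart also without it. Ltv1, an assembly factor removed before the last steps, read 242, 245 and 184 against 120.03, 57.5 and 171 (-0.97, SE 0.34, adjusted p = 0.126). Nob1, the nuclease that makes the mature 3′ end of 18S rRNA, read 609, 868 and 1068 against 799, 641 and 773, and its groups overlapped (-0.19, SE 0.27, adjusted p = 0.758). Bysl passed with each array left out, Tsr1 was lost without labelled double knockout replicate 1, and Rrp12 was lost without wild type replicate 2 or any 1 of the labelled double knockouts.

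**Figure D3:**
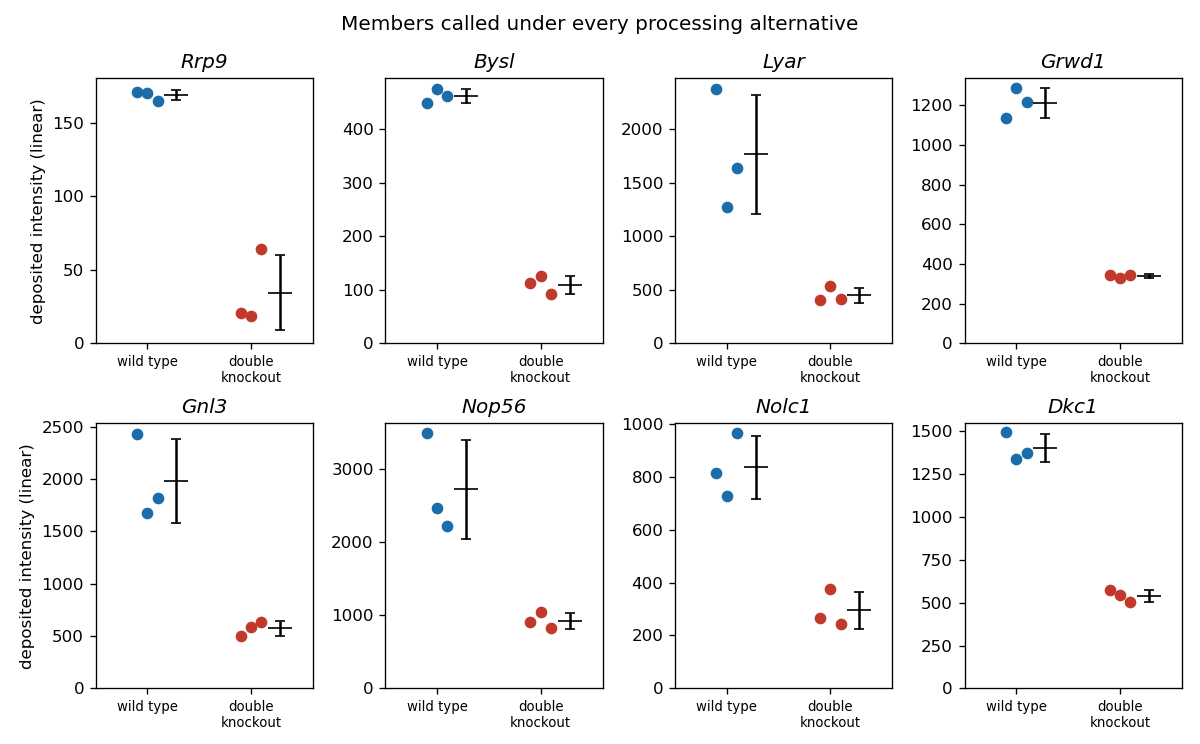
Each panel is 1 of the 8 members that passed under all 17 processing alternatives. The vertical axis is deposited linear intensity from 0, points are single arrays, and the bar beside them is the mean with its SD (n = 3). In every panel the 3 wild type points lie above the 3 points labelled double knockout, which follows largely from choosing genes by their calls on these arrays. Panels have their own scales, so levels are not comparable between genes.

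In 60S assembly, 5 of 14 tested members fell, with a median of -0.92. Grwd1, a WD repeat protein that associates with pre-60S particles, read 1134, 1285 and 1218 against 346, 330.3 and 344. Values within each group differed little, and the difference was -1.80 (SE 0.22, adjusted p = 0.00087). Gnl3 (nucleostemin, a GTPase abundant in stem and proliferating cells) read 2434, 1677 and 1823 against 499, 587 and 632 (-1.77, SE 0.23, adjusted p = 0.00125). Rrs1, which helps bring the 5S particle into the pre-60S, read 2766, 2276 and 3086 against 1208, 1446 and 1257 (-1.06, SE 0.20, adjusted p = 0.0117). These 3 genes had no wild type value within reach of the other group. Nop2, a cytosine methyltransferase of the large subunit rRNA, read 238, 232 and 202 against 89.3, 125 and 84.8 (-1.08, SE 0.23, adjusted p = 0.0197). Bop1 fell with a difference of -0.98 (SE 0.22, adjusted p = 0.0246). Grwd1 and Gnl3 passed with each array left out, Rrs1 was lost without labelled double knockout replicate 1 or 3, and Nop2 and Bop1 were each lost without any 1 of 4 arrays.

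Bop1 forms the PeBoW complex with Pes1 and Wdr12, which is required for 5.8S and 28S rRNA processing, and the 3 genes did not read alike. Bop1 read 615, 571 and 714 against 332, 304 and 310.5. Pes1 read 919, 1083 and 2538 against 1524, 1984 and 1164, with wild type replicate 3 the highest array and groups that overlapped (0.14, SE 0.36, adjusted p = 0.872). Wdr12 read 252, 355 and 335 against 333, 278 and 282, which also overlapped (-0.08, SE 0.25, adjusted p = 0.891). A second probe set gave Pes1 a different reading, as described with the probe sets below, and the differences between the 3 genes were not tested.

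Of the other 60S members, Rrp1b, Gnl2, Nop16 and Wdr74 had groups apart and did not pass. Rrp1b, a paralog of Rrp1, read 544, 484 and 318 against 263, 199 and 202 (-0.96, SE 0.27, adjusted p = 0.0588), and Gnl2, a GTPase of pre-60S export, read 529, 420.4 and 381 against 263, 271 and 183 (-0.87, SE 0.25, adjusted p = 0.0621). Nop16 differed by -0.9997 with an SE of 0.35, its wild type values running from 369.9 to 1005. Nip7, which binds pre-60S particles, had the widest spread within wild type of any member, at 735, 1032 and 2874, a 3.91-fold range. Its other values were 915, 1205 and 585, and the difference was -0.60 (SE 0.44, adjusted p = 0.503). Rrp1 and the rRNA methyltransferase gene Ftsj3 differed by 0.21 and 0.13 and were far from the threshold (adjusted p = 0.701 and 0.829).

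DEAD-box helicases remodel the pre-ribosome with energy from ATP, and 1 of the 4 members fell. Ddx18 read 2563, 1587 and 1244 against 652, 706 and 807 (-1.26, SE 0.27, adjusted p = 0.0206), a call lost in 5 of the 6 fits that left out 1 array, all but that without wild type replicate 3. Ddx21, which also acts in RNA polymerase I and II transcription, read 451, 330.2 and 375 against 183, 269.7 and 170.2 (-0.88, SE 0.25, adjusted p = 0.0587). The groups of both genes were apart. Ddx56 and Ddx10 differed by -0.20 and -0.09 and their groups overlapped.

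Several probe sets read the same gene in 32 members, which gives a second reading of the transcript from the same RNA. Of the 99 member probe sets that passed the filter, 32 fell, none rose and 86 had a negative difference, where 2.11% of all probe sets fell and 2.91% rose. All probe sets of a gene were negative in 24 of the 32 members, 7 were mixed and in 1, Rrp1, all were positive. In 6 members, Bysl, Grwd1, Nop56, Dkc1, Ddx18 and Nop10, at least 2 probe sets passed. The second Bysl probe set read 201, 222 and 169.7 against 76.7, 62.6 and 58.8 (-1.40, SE 0.24, adjusted p = 0.00723). The second Nop56 probe set read 434, 621 and 490.1 against 229, 221 and 190.2 (-1.22, SE 0.25, adjusted p = 0.0181). Those of Grwd1 changed by -1.62 and -1.31, beside -1.80 for the probe set that stands for the gene, so all 3 fell. Outside these counts, the probe set that Mrto4 shares with other symbols read 488, 470 and 648 against 170, 111 and 288 (-1.52, SE 0.32, adjusted p = 0.0205).

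**Figure D4:**
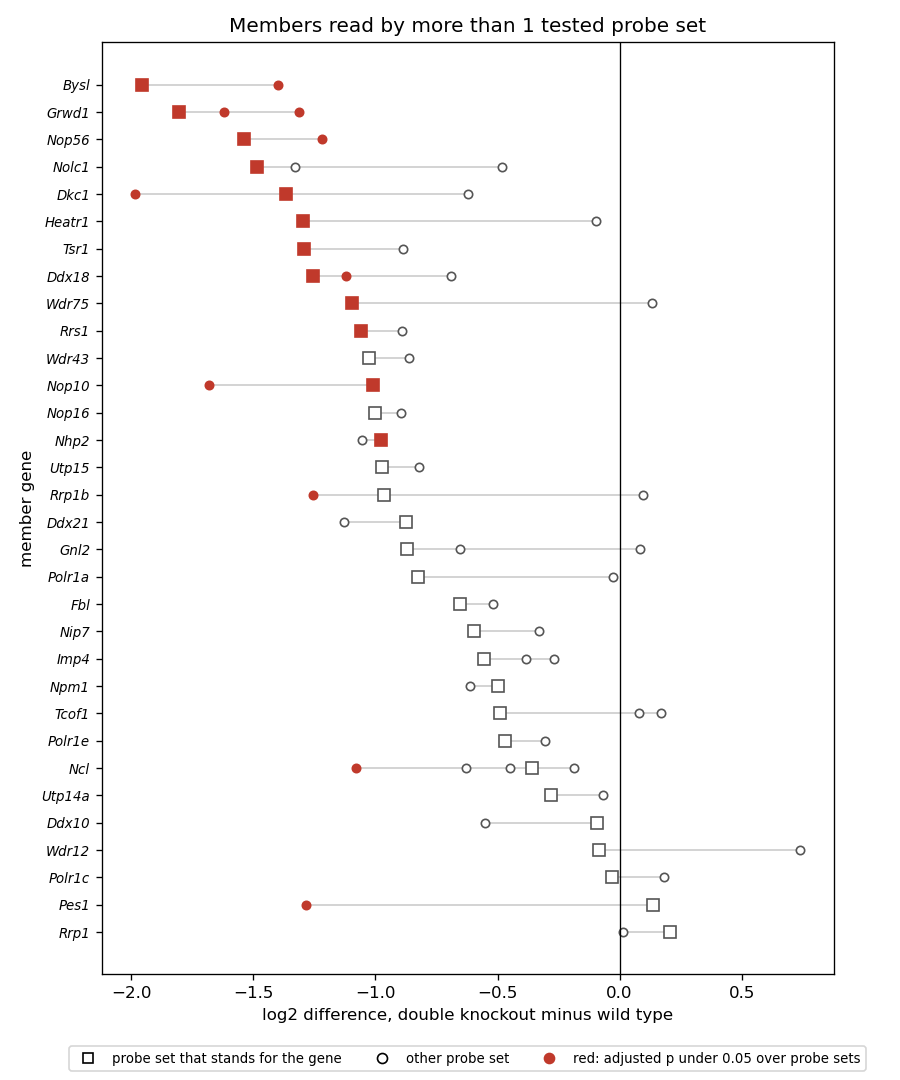
Each line is 1 of the 32 members with more than 1 tested probe set, and the horizontal axis is the log2 difference, double knockout minus wild type by label. Squares are the probe set that stands for the gene, circles the others, and red marks an adjusted p under 0.05 over all probe sets. Of 43 circles 10 are red, all left of 0, and 8 are right of 0, the farthest being Wdr12 at 0.74.

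In other members the probe sets parted. Ncl has 5, all negative, and its second read 973, 811 and 927 against 418, 468 and 388, a fall of 1.08 on the log2 scale (SE 0.22, adjusted p = 0.0181), where the probe set that stands for the gene did not pass. Pes1 is the clearest case: its second probe set read 80.5, 155 and 108 against 35.6, 31.2 and 44.2 and fell (-1.29, SE 0.28, adjusted p = 0.0224), while the first differed by 0.14. Rrp1b had a second probe set that fell, at 177, 82.9 and 95.9986 against 32.1, 42.0 and 42.6 (-1.25, SE 0.28, adjusted p = 0.0236), and another at 0.10. Wdr12 turned the other way, with a second probe set at 55.1, 28.7 and 34.1 against 70.3, 56.4 and 107 (0.74, SE 0.28, adjusted p = 0.174). Smaller opposite values came from further probe sets of Wdr75 (0.13), Tcof1 (0.17 and 0.08), Gnl2 (0.08) and Polr1c (0.18). Heatr1 and Wdr75 each fell by the probe set that stands for the gene only: their second ones read 13.8 to 40.5 on all arrays, about the bacterial control level. The sources used here do not say which part of a transcript each probe set reads.

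The rest of the pathway went the same way by count. Of 89 other ribosome biogenesis genes tested, from a list made by function, 19 fell, none rose and 73 were negative, with a median of -0.67. At an unadjusted p under 0.05, 51 of them differed, 2 of these upward, beside 2755 of all 13187 genes in either direction. The 6 with the smallest p were Znhit6 (box C/D assembly, -1.18, adjusted p = 0.0125), Nol9 (a polynucleotide kinase of rRNA processing, -1.30, adjusted p = 0.013), Ngdn (-0.94, adjusted p = 0.0138), Nat10 (an RNA cytidine acetyltransferase, -1.21, adjusted p = 0.0145), Pinx1 (-1.12, adjusted p = 0.0194) and Noc2l (-1.30, adjusted p = 0.0212). Nat10 read 423, 373 and 582 against 186, 218 and 167, and Ngdn 6386, 5118 and 7441 against 3149, 3566 and 3167. In both the groups were well apart. This count too rested on the arrays: 35 fell and 2 rose without wild type replicate 3, where 7.22% of all genes fell, and the number that fell was 7 without replicate 1, 5 without replicate 2, and 1, 5 and 4 without labelled double knockout replicates 1, 2 and 3, beside the shares of all genes given above for these fits.

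The nuclear exosome, which trims rRNA precursors, had 2 of 13 genes that fell, Exosc8 (-1.12, SE 0.21, adjusted p = 0.0108) and Dis3 (-0.96, SE 0.25, adjusted p = 0.0424), and all 13 were negative with a median of -0.52. Subunits of RNA polymerases II and III gave no call among 20 genes in limma, with a median of -0.21. At an unadjusted p under 0.05 there were 5 of them, beside 2755 of all 13187 genes. The closest to a call were Polr3e (-0.81, adjusted p = 0.112), Polr3c (0.73, adjusted p = 0.149) and Polr2h (-0.95, adjusted p = 0.156).

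Cytosolic ribosomal protein genes, whose products these factors assemble, had a median of 0.15. Of 42 tested, 1 fell, none rose and 35 were positive. That median was 0.17 on the values as deposited and 0.04 after quantile normalization, where 15 of 42 were negative against 7. Rpl14 was the gene that fell, at 2418, 1753 and 1488 against 856, 727 and 1111 (-1.07, SE 0.26, adjusted p = 0.0324). Rpl12 and Rps25 followed at -0.64 and -0.53 without passing. Many of these genes have no probe set with a single symbol here (43 of 78 had one). Their mean log2 level ran from 12.84 to 13.15 on the wild type arrays and from 12.96 to 13.15 on the labelled double knockouts, so the groups overlapped. The members' mean ran from 9.48 to 9.58 against 8.69 to 8.76, which did not overlap.

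**Figure D5:**
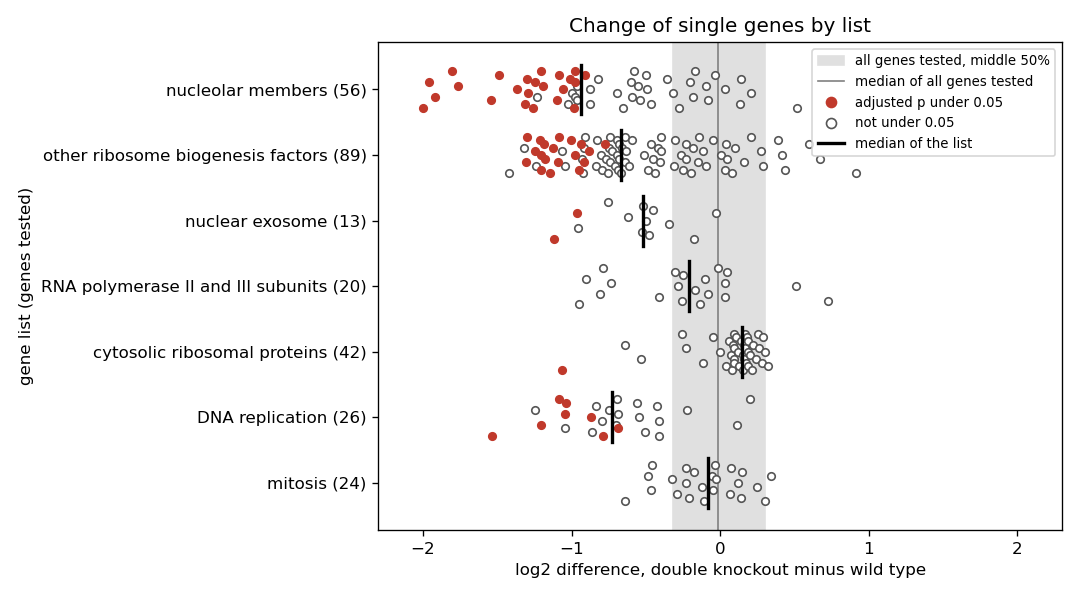
Each point is 1 gene, placed by its log2 difference (double knockout minus wild type by label) in the line of its list, with the number of genes tested in brackets. Red points have an adjusted p under 0.05, black bars are list medians, and the grey band is the middle of all genes tested, -0.32 to 0.30. The medians of the nucleolar members (-0.94), the other biogenesis genes (-0.67) and DNA replication (-0.72) lie left of the band, and those of the ribosomal proteins (0.15) and mitosis (-0.08) lie in it.

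Genes of the cell cycle are set beside these because biogenesis factors are made most in dividing cells. Of 26 DNA replication genes 8 fell, none rose and 24 were negative (median -0.72), and of 24 mitosis genes none passed in limma, none reached an unadjusted p under 0.05, and the median was -0.08. By array, the mean log2 level of the replication genes was 10.47, 10.34 and 9.85 in wild type and 9.53, 9.43 and 9.55 in the labelled double knockouts. That of mitosis genes was 9.63, 9.61 and 8.28 against 9.14, 8.98 and 9.09. On wild type replicate 3 the mitosis level was the lowest of all 6 arrays. Its replication level lay between the other wild type arrays and the labelled double knockouts, and its member level, 9.58, was the highest. The part of cell division in the members' change was not tested. Myc, a regulator of many of these genes, read 1100.2, 1121 and 808 against 278, 230.3 and 299 and fell (-1.86, SE 0.25, adjusted p = 0.00146). Its groups were far apart. The part of Myc in the members' change was not tested.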

How the data were processed

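The deposited table holds 1 linear intensity for each of 45101 probe sets and 6 arrays, and its mean after trimming 2% at each end is 150 on every array, so the authors had scaled the arrays to a common value. The sources used here do not give the scanner, the probe summary or detection calls. Groups and replicate numbers came from the labels. After 64 controls were left out, 34945 probe sets had 1 symbol in the platform annotation, 932 had several and 9160 none. A RefSeq gene table, in which 34741 matched, gave current symbols.

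Log2 of intensity plus 16 was taken, which understates changes of dim genes, and array medians, up to 0.126 apart, were aligned. Probe sets under the 40th percentile of mean log2 (4.87, an intensity of 13.2) were left out, leaving 27022. The groups were compared with limma 3.58.1 in R 4.3.3 (lmFit, eBayes with trend). Adjusted p is Benjamini-Hochberg over all genes or probe sets, with a threshold of 0.05, and SE is moderated. A gene was represented by its brightest probe set with 1 symbol. The 3 arrays a group limit precision. The fit was tested on simulated data, where it found most of the larger falls and missed the smaller ones. A gene that did not pass may therefore still have changed. The members and lists were chosen with earlier results of these data known. Values on every array were given for up to 4 members of smallest p in each role, all RNA polymerase I members and members whose probe sets disagree, and some others were added after their values were seen. Alternatives covered scaling, offset, filter, trend, array weights, a replicate block, each array left out, and the choice of probe set.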

Additional observations from a re-analysis of the deposited data

How the results depend on the processing

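The direction of the members' shift was kept under all 17 alternatives run, and 46 of 56 members stayed negative under each. The median of -0.94 became -0.90 after quantile normalization, -0.97 with an offset of 1, -0.77 with an offset of 64 and -0.87 with array weights. It was -0.70 over the mean of a gene's probe sets. When probe sets that can cross-hybridize were used only for genes with no other, it was -0.88. With 1 array left out it ran from -0.98 to -0.80. The count of 23 members was less firm. It ran from 8 to 31 with 1 array left out (31 being 30 lower and 1 higher) and was 40 with array weights (39 lower and 1 higher), where 10.8% of all genes fell against 2.84% without weights. The 32 probe sets became 53 with array weights (52 lower and 1 higher), where 6.1% of all probe sets fell, and ran from 8 to 43 with 1 array left out, 43 being 42 lower and 1 higher beside 5.04% of all. For other biogenesis genes the 19 calls became 47 with array weights (45 lower and 2 higher) and 11 with no filter on low values (1.59% of all genes lower), and ran from 1 to 37 with 1 array left out, 37 being 35 lower and 2 higher.

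With the replicate number as a block, 10 members, 13 member probe sets and 0 other biogenesis genes passed in limma, beside 0.819% of all genes and 0.662% of all probe sets lower. In that fit 41 of the other biogenesis genes had an unadjusted p under 0.05, and the share of all genes at that level is not given here. Numbers 1, 2 and 3 name separate animals, and the labels give no batch. Deviations from group means had r of -0.06, -0.17 and -0.33 between same-numbered arrays over 13187 genes, and -0.22 to 0.29 between other pairs. Deviations of 3 arrays from their own mean depend on each other, so these values cannot decide whether the numbers pair the samples.

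The sign turned only in members that had not passed. Polr1c was 0.10 after quantile normalization, 0.22 with array weights, 0.075 over the mean of probe sets and 0.18 without cross-hybridizing ones. With array weights Nop14 was 0.0023, Ddx10 0.074 and Ddx56 0.0935. Over the mean of probe sets Pes1 was -0.57 and Wdr12 0.33. With 1 array left out, Polr1c ran from -0.19 to 0.19, Imp3 from -0.21 to 0.21, Rrp1 from -0.056 to 0.38 and Pes1 from -0.16 to 0.57. In the same fits Wdr12 ran from -0.25 to 0.039, Ftsj3 from -0.028 to 0.29, Ddx10 from -0.21 to 0.047 and Ddx56 from -0.41 to 0.092. The cause of these turns was not tested. Dim probe sets near the bacterial control level limit what can be said of Rrp9, Nop58 and Ftsj3.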
